A study of Mus musculus with 18 samples.

Results

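The genes described here are 36 core genes of macrophages and other leukocytes, chosen by name as a list. That choice was made with earlier results of these data known, so counts set beside all-gene shares are descriptions. The genes were followed over every group of a study of cells reprogrammed from fibroblasts towards cardiomyocytes. Of the 36 listed genes, 35 had a probe set that named that gene alone, out of 19912 genes measured. The remaining gene, Lyn, was not analysed here. The 35 genes each had 1 such probe set.

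RNA from cells of CD1 mice was hybridised to Affymetrix mouse Gene 1.0 ST arrays, 18 in all, with 3 biological replicates in each of 6 groups. The reference groups were neonatal cardiac fibroblasts (CF) and neonatal cardiomyocytes (CM). GFP+ cells were induced cardiomyocyte-like cells (iCMs), in which reprogramming succeeded per the labels, and GFP- cells were those in which it failed, both taken at 2 weeks and at 4 weeks. The labels name neither the reprogramming factors nor the promoter that drives GFP, no allele or other agent, and no age beyond neonatal, and they do not say whether animals were pooled.

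Macrophages are tissue phagocytes that most organs, the heart included, hold from before birth. They depend on signals through the CSF1 receptor and on the transcription factor PU.1, engulf particles coated with antibody or complement, and digest them in lysosomes. Many of their defining genes are shared with other leukocytes, such as the phosphatase CD45 (Ptprc) and the integrin chains, while others mark the phagocyte, such as F4/80 (Adgre1), C1q and lysozyme (Lyz2).

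Values are log2 intensities, so a difference of 1 is a 2-fold difference, and each probe set is compared only with itself across groups. Means carry the SD over 3 arrays and differences carry the standard error (SE) from the limma fit. A gene was called at a Benjamini-Hochberg adjusted p under 0.05 over all 19912 genes. Array medians ran from 7.32 to 7.45. A group mean under 6.16, the lowest 25th percentile of any array, was taken as near background, so a difference that rests on it is a lower bound. Values near the array maximum of 13.82 to 13.95 can hide a difference at the other end. By list mean the labelled types held their own markers: a list of 10 cardiomyocyte genes averaged 13.06 ± 0.02 in CM and 7.40 ± 0.06 in CF, and 12 fibroblast genes averaged 10.79 ± 0.18 in CF and 9.79 ± 0.14 in CM (SD, n = 3). Of the fibroblast list, Lum was called higher in CM than in CF, by 1.30 ± 0.17, and Postn differed by 0.65 ± 0.30, not called (SE).

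The macrophage and leukocyte genes were present in the cells labelled cardiac fibroblasts, and far lower in cardiomyocytes. All 35 were lower in CM than in CF, where 21.5% of all genes were called lower. The median difference was -4.92 log2, beside 0.03 over all genes, so the median CM value was 3.31% of the CF value. Differences ran from -6.46 ± 0.10 for Lyz2 (SE) to -1.14 ± 0.13 for Trem2. In CM, 9 genes lay near background (Adgre1, Cd200r1, Cd84, Il7r, Itgam, Cd52, Ms4a6b, Stap1 and Mpeg1), so their differences from CM are lower bounds.

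Averaged over the 35 genes, the level was 11.08 ± 0.10 in CF, 11.40 ± 0.03 in GFP- cells at 2 weeks, 11.46 ± 0.04 in GFP- cells at 4 weeks, 9.11 ± 0.17 in iCMs at 2 weeks, 8.68 ± 0.04 in iCMs at 4 weeks and 6.63 ± 0.09 in CM (SD, n = 3). The groups therefore fell into a high set (CF and both GFP- groups), a middle set (both iCM groups) and a low one (CM). In bulk RNA, fewer cells of a type and less RNA per cell cannot be told apart. The heat map of all 35 genes shows the same 3 tiers in each block of roles.

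**Figure D1:**
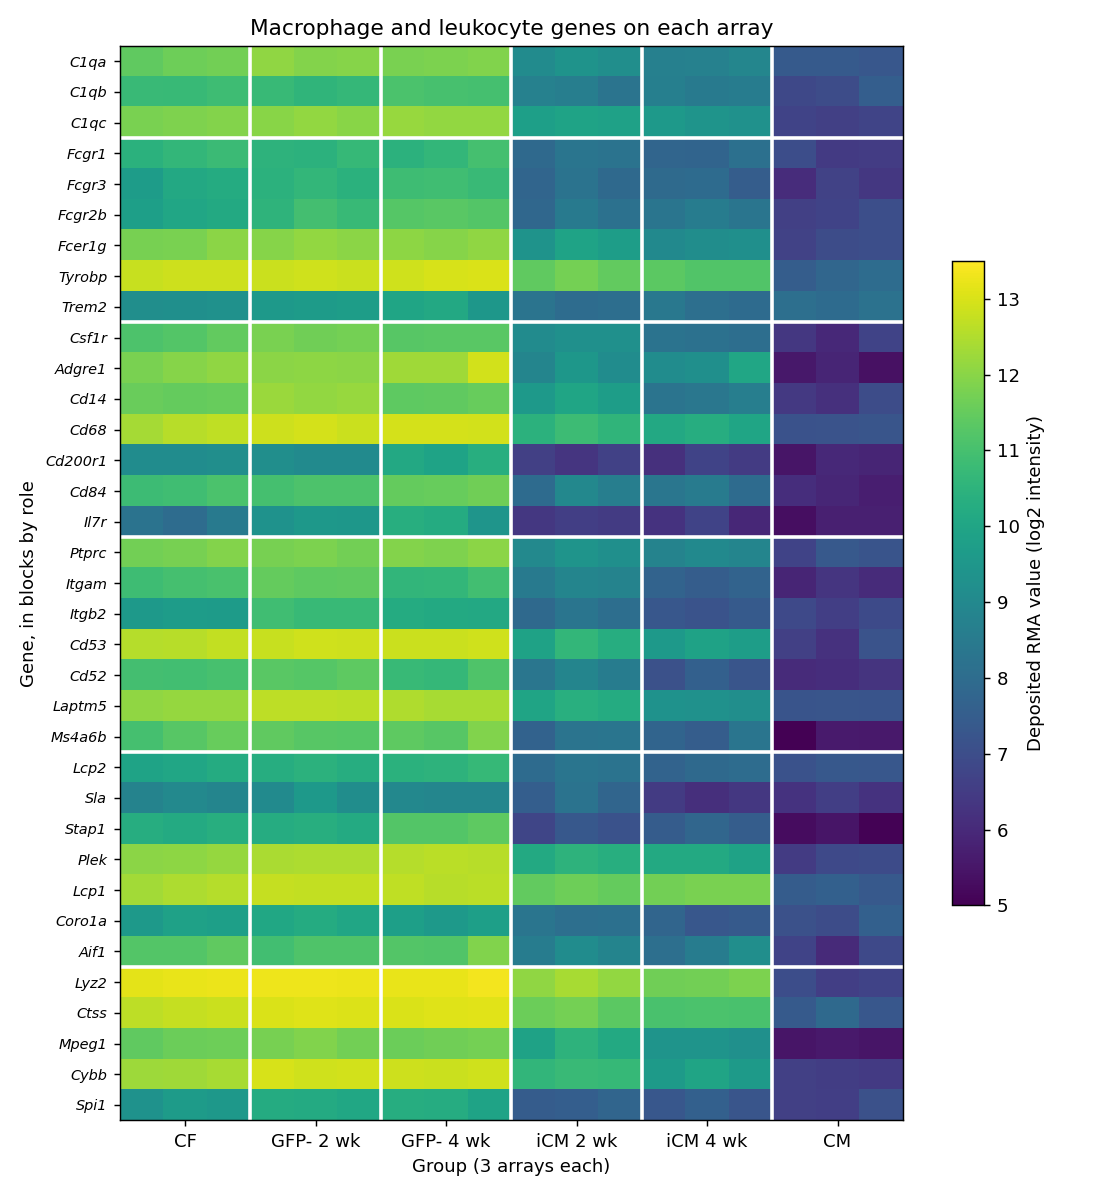
Each row is 1 of the 35 genes, in blocks by role, and each column 1 of the 18 arrays, with colour giving the deposited RMA value (log2 intensity). The CF and GFP- arrays are brightest, the iCM arrays intermediate and the CM arrays darkest, with Trem2 at both times and Sla and Coro1a at 4 weeks overlapping between iCM and CM arrays; compare colours along a row only.

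Both iCM groups were below CF, and below the GFP- cells of the same time, for all 35 genes. Against CF, 35 of 35 were lower at 2 weeks, where 15.8% of all genes were, and 35 of 35 at 4 weeks, where 15.2% were. The median difference was -1.96 at 2 weeks and -2.48 at 4 weeks, or 25.8% and 18% of the CF level, beside medians over all genes of 0.03 and 0.02. Against the GFP- cells of the same time, 35 of 35 were lower at 2 weeks (18.4% of all genes) and 35 of 35 at 4 weeks (17.1%). Those medians were -2.40 and -2.88, or 19.0% and 13.6% of the GFP- level. All 3 arrays of either iCM group lay below all 3 arrays of CF and of the matching GFP- group for each of the 35 genes. Of all 19912 genes, 4213 at 2 weeks and 4232 at 4 weeks lay so against CF. Against the GFP- cells, 4392 and 4201 did. The comparisons with CF share the CF arrays and are given side by side only. Markers of other cell types moved with these differences: 10 of 12 fibroblast genes were lower than CF in iCMs at each time, the list's mean being 9.52 ± 0.12 at 2 weeks and 9.01 ± 0.02 at 4 weeks, and all 10 cardiomyocyte genes were higher, at 11.46 ± 0.21 and 12.01 ± 0.07 (SD, n = 3). Thy1, of the fibroblast list, went the other way at 2 weeks, 2.07 ± 0.21 above CF (SE). Their part in the result was not tested.

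The iCMs nevertheless kept most of these transcripts above the cardiomyocyte level. At 2 weeks 34 of 35 were higher than in CM, where 22.7% of all genes were, with a median of 2.61 log2. At 4 weeks 32 of 35 were higher, where 19% of all genes were, with a median of 1.91. The medians over all genes were -0.01 in both. In all, 32 genes were below CF and above CM at both times, a joint count that has no all-gene share beside it. The exceptions were Trem2 at both times and Sla and Coro1a at 4 weeks.

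Placed on the log2 distance from the CM mean (0%) to the CF mean (100%), the median gene stood at 52.0% in iCMs at 2 weeks and at 41.9% at 4 weeks. In GFP- cells the median stood at 106% at both times. The spread between genes was wide. At 2 weeks it ran from 1.28% for Trem2 to 84.3% for Lyz2, and at 4 weeks from -0.73% for Sla to 86.0% for Lcp1. These positions describe levels already compared above, with no test of their own, and those of the 9 genes near background in CM are affected by that floor.

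**Figure D2:**
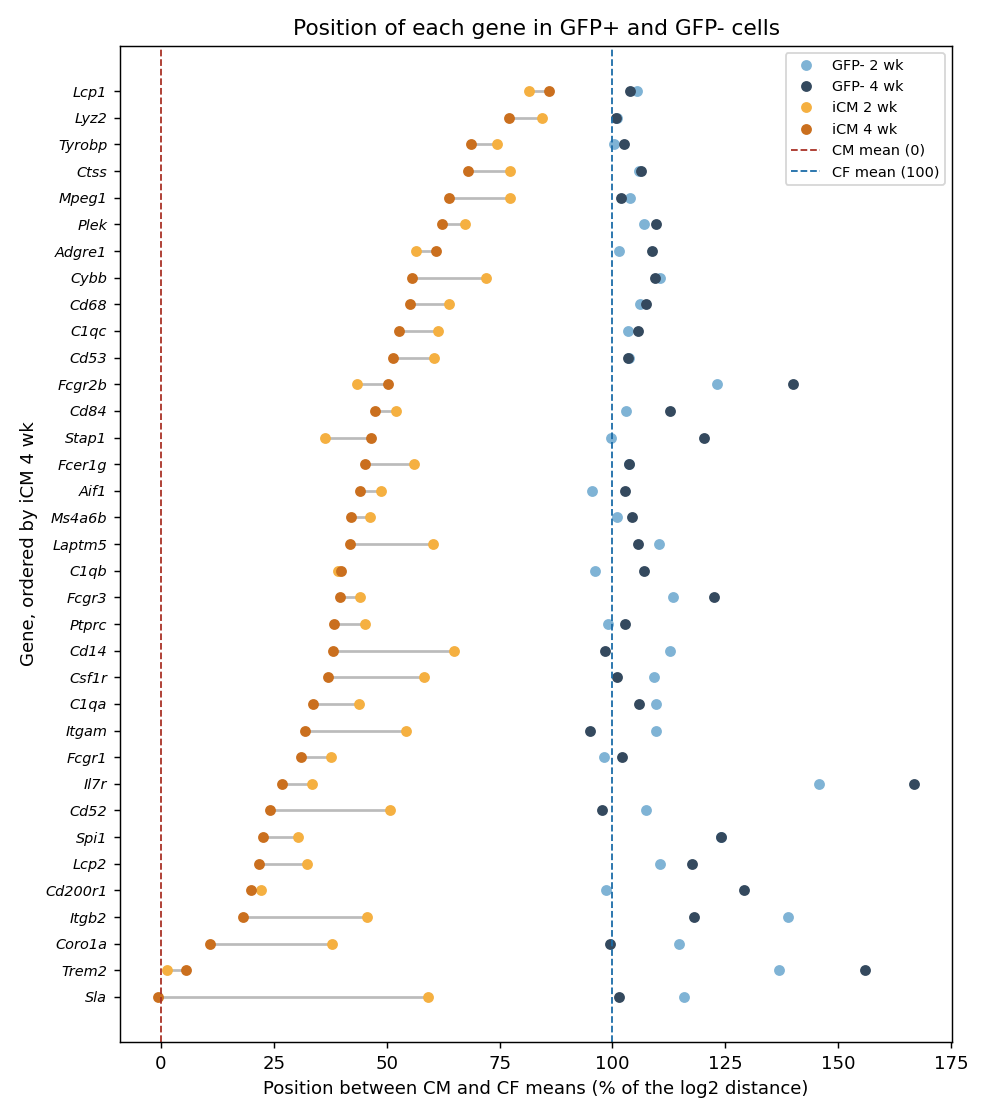
Each row is a gene, and the x axis gives its mean in GFP+ and GFP- cells at 2 and 4 weeks as a percentage of the log2 distance between the CM mean (0) and the CF mean (100), joined by a grey line for the iCM groups. Lcp1, Lyz2, Tyrobp, Ctss and Mpeg1 stay nearest to CF in iCMs at 4 weeks, and Sla and Trem2 nearest to CM, while GFP- cells sit at or beyond 100 for most genes.

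The C1q chains C1qa, C1qb and C1qc assemble into the recognition molecule of the classical complement pathway, which tissue macrophages make. For C1qc the CF arrays read 11.78, 11.86 and 11.94, the GFP- arrays 11.97, 12.13 and 12 at 2 weeks and 12.20, 12.12 and 12.13 at 4 weeks, the iCM arrays 9.79, 9.95 and 9.86 at 2 weeks and 9.55, 9.40 and 9.31 at 4 weeks, and the CM arrays 6.71, 6.62 and 6.76. The groups of C1qc were separate throughout, apart from the overlap between GFP- cells at 2 and 4 weeks. In iCMs C1qc fell from 2 to 4 weeks by 0.45 ± 0.08 (SE; adjusted p = 0.00179, limma), and C1qa fell by 0.43 ± 0.09 (adjusted p = 0.00451). C1qb differed by 0.02 ± 0.14 between those times, its arrays reading 8.73, 8.65 and 8.28 at 2 weeks and 8.69, 8.48 and 8.56 at 4 weeks, which overlap.

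Fc receptors bind antibody, and the adaptors Fcer1g and Tyrobp (DAP12) carry activation motifs through which their partner receptors signal. Tyrobp read 12.78, 12.85 and 12.86 in CF, 11.43, 11.71 and 11.47 in iCMs at 2 weeks, 11.35, 11.19 and 11.19 at 4 weeks and 7.51, 7.80 and 8.0 in CM. The iCM arrays of Tyrobp were well below CF yet 3.47 ± 0.11 log2 above CM at 4 weeks. Fcer1g stood lower on its own scale, at 15.3% of the CF level in iCMs at 4 weeks beside 33.3% for Tyrobp.

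The activating receptors Fcgr1 and Fcgr3 and the inhibitory receptor Fcgr2b were at 15.2%, 21.8% and 33.1% of CF in iCMs at 4 weeks. Fcgr2b read 9.79, 10.02 and 10.16 in CF, 10.53, 10.96 and 10.71 in GFP- cells at 2 weeks and 11.27, 11.34 and 11.22 at 4 weeks. Those 3 groups did not overlap, and Fcgr2b was 0.74 ± 0.15 above CF at 2 weeks (adjusted p = 0.00131) and 1.29 ± 0.15 above at 4 weeks (adjusted p = 5.65e-06). Fcgr3 was above CF by 0.49 ± 0.16 and 0.82 ± 0.16, the first not called without any 1 of the GFP- arrays at 2 weeks, and Fcgr1 differed from CF by -0.07 ± 0.16 and 0.08 ± 0.16, which were not called.

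Trem2 encodes a lipid-sensing receptor that pairs with Tyrobp. Its arrays read 9.19, 9.23 and 9.31 in CF, 9.58, 9.68 and 9.74 in GFP- cells at 2 weeks, 10.01, 10.13 and 9.50 at 4 weeks, 8.26, 8.0 and 8.08 in iCMs at 2 weeks, 8.39, 8.11 and 7.99 at 4 weeks, and 8.11, 7.99 and 8.20 in CM. The iCM and CM arrays of Trem2 overlapped. The difference from CM was 0.01 ± 0.13 at 2 weeks (adjusted p = 0.949) and 0.06 ± 0.13 at 4 weeks (adjusted p = 0.79). The CM mean of Trem2 lay above the near-background limit.

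Csf1r is the receptor for the growth factors CSF1 and IL-34, on which most tissue macrophages depend. Its arrays read 11.12, 11.24 and 11.44 in CF, 11.78, 11.67 and 11.72 in GFP- cells at 2 weeks, 11.30, 11.33 and 11.33 at 4 weeks, 9.11, 9.27 and 9.25 in iCMs at 2 weeks, 8.23, 8.19 and 8.09 at 4 weeks, and 6.37, 5.97 and 6.71 in CM. Between 2 and 4 weeks Csf1r fell in iCMs by 1.04 ± 0.13 (adjusted p = 5.11e-05), with no overlap between the arrays. In GFP- cells it fell by 0.40 ± 0.13 (adjusted p = 0.0381), a call lost without any 1 of the 6 GFP- arrays.

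Cd14, the co-receptor for bacterial lipopolysaccharide, had a like course. It read 9.58, 10 and 9.73 in iCMs at 2 weeks and 8.27, 8.38 and 8.64 at 4 weeks, and 12.21, 12.12 and 12.17 in GFP- cells at 2 weeks and 11.38, 11.43 and 11.53 at 4 weeks. Cd14 fell in iCMs by 1.34 ± 0.15 (adjusted p = 1.73e-05) and in GFP- cells by 0.72 ± 0.15 (adjusted p = 0.00232).

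Adgre1, whose product F4/80 is the usual surface mark of mouse macrophages, was not called between the times in either kind of cell. It read 8.87, 9.51 and 9.15 in iCMs at 2 weeks and 9.13, 9.23 and 10.04 at 4 weeks, and 12.04, 12.06 and 12.01 in GFP- cells at 2 weeks and 12.29, 12.30 and 12.91 at 4 weeks. The difference was 0.29 ± 0.21 in iCMs (adjusted p = 0.442) and 0.46 ± 0.21 in GFP- cells (adjusted p = 0.142). Replicate 3 was the highest array at 4 weeks in both, as it was for Aif1 and Ms4a6b.

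The endosomal glycoprotein gene Cd68 fell in iCMs by 0.47 ± 0.10 between the times (adjusted p = 0.00573). Cd200r1, an inhibitory receptor, read 9.12, 9.14 and 9.2 in CF, 9.21, 9.05 and 9.05 in GFP- cells at 2 weeks and 10.14, 9.93 and 10.34 at 4 weeks, while its iCM arrays read 6.61, 6.31 and 6.66 at 2 weeks and 6.17, 6.72 and 6.46 at 4 weeks. Cd200r1 rose in GFP- cells by 1.03 ± 0.14 (adjusted p = 4.5e-05), while the difference of -0.07 ± 0.14 in iCMs was not called. Cd84, an adhesion receptor of the SLAM family, differed by 0.48 ± 0.18 in GFP- cells and by -0.23 ± 0.18 in iCMs, neither of them called.

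Il7r, the interleukin-7 receptor chain, known from lymphocytes and also from fetal macrophages, showed the largest excess over CF among the 35 genes. It read 8.22, 8.0 and 8.50 in CF, 9.32, 9.54 and 9.49 in GFP- cells at 2 weeks and 10.34, 10.25 and 9.44 at 4 weeks. All GFP- arrays exceeded all CF arrays, by 1.21 ± 0.21 (adjusted p = 0.000241) and 1.77 ± 0.21 (adjusted p = 4.7e-06). In iCMs Il7r read 6.38, 6.58 and 6.48 at 2 weeks and 6.26, 6.72 and 5.95 at 4 weeks.

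**Figure D3:**
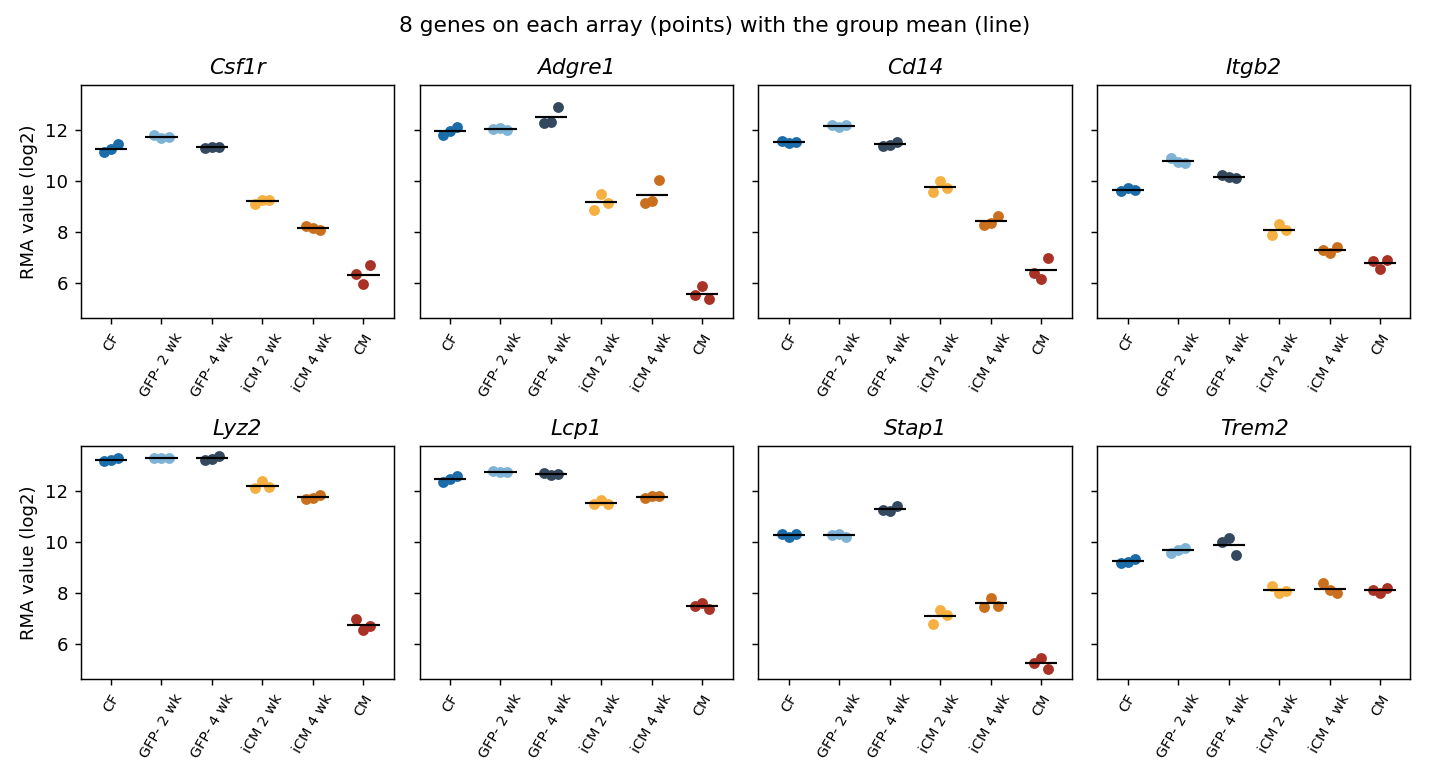
The RMA value (log2) of 8 genes is shown on each array (points) with the group mean (line). Csf1r, Cd14 and Itgb2 are lower at 4 than at 2 weeks in iCMs and in GFP- cells, Stap1 is higher at 4 weeks in both, Lyz2 and Lcp1 lie below CF and far above CM in iCMs, and Trem2 overlaps CM there.

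Ptprc (CD45), the phosphatase on all leukocytes, read 11.68, 11.76 and 11.94 in CF, 9.01, 9.40 and 9.24 in iCMs at 2 weeks, 8.81, 9.03 and 8.86 at 4 weeks and 6.71, 7.36 and 7.20 in CM. The iCM value was 16.8% of CF at 2 weeks and 13.4% at 4 weeks, and the difference of -0.32 ± 0.13 between the times was not called (adjusted p = 0.14).

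Itgam (CD11b) and Itgb2 (CD18) encode the 2 chains of the complement receptor Mac-1. Itgam read 11.50, 11.38 and 11.43 in GFP- cells at 2 weeks and 10.61, 10.63 and 10.92 at 4 weeks, and 8.50, 8.88 and 8.82 in iCMs at 2 weeks and 7.69, 7.50 and 7.72 at 4 weeks. Both chains fell in both kinds of cell. In iCMs Itgam fell by 1.10 ± 0.12 and Itgb2 by 0.79 ± 0.11, and in GFP- cells by 0.72 ± 0.12 and 0.60 ± 0.11, with adjusted p from 1.44e-05 to 0.000623. Against CF, Itgb2 was higher in GFP- cells at both times (1.12 ± 0.11 and 0.52 ± 0.11), while Itgam was called higher at 2 weeks (0.47 ± 0.12) and not called at 4 weeks (-0.25 ± 0.12).

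Cd52, a small glycoprotein of the leukocyte surface, read 8.35, 8.88 and 8.56 in iCMs at 2 weeks and 7.09, 7.6 and 7.25 at 4 weeks. It fell there by 1.28 ± 0.14 (adjusted p = 1.68e-05) to 7.96% of the CF level, the lowest share of the 35 genes at that time. Laptm5, a lysosomal membrane protein of blood cells, fell in iCMs by 0.90 ± 0.09 (adjusted p = 4.49e-06). The tetraspanin gene Cd53 and Ms4a6b, of the membrane-spanning 4A family, differed between the times by -0.54 ± 0.18 and -0.24 ± 0.22 and were not called. Ms4a6b stood at 9.37% of CF in iCMs at 4 weeks.

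Among the signalling and cytoskeletal genes, Lcp1 (L-plastin, which bundles actin in leukocytes) stayed nearest to fibroblasts. It read 12.33, 12.45 and 12.56 in CF, 11.46, 11.64 and 11.48 in iCMs at 2 weeks, 11.71, 11.78 and 11.79 at 4 weeks and 7.48, 7.61 and 7.38 in CM. Lcp1 was 61.9% of the CF level in iCMs at 4 weeks and 4.27 ± 0.08 log2 above CM. It was the only one of the 35 to differ from CF by less than 2-fold at either time.

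Sla, an adaptor that damps antigen receptor signals, lay at the other end. It read 8.79, 8.99 and 8.87 in CF, 7.55, 8.24 and 7.77 in iCMs at 2 weeks, 6.49, 6.15 and 6.39 at 4 weeks and 6.24, 6.58 and 6.25 in CM. Sla fell in iCMs by 1.51 ± 0.15 (adjusted p = 6.07e-06), and its arrays at 4 weeks overlapped those of CM. The actin regulator Coro1a fell in iCMs by 0.68 ± 0.15 (adjusted p = 0.00504), to 0.27 ± 0.15 above CM, which was not called (adjusted p = 0.172) unless replicate 3 of CM was left out.

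Stap1 encodes a signalling adaptor of blood cells. It read 6.78, 7.33 and 7.15 in iCMs at 2 weeks and 7.47, 7.82 and 7.49 at 4 weeks, and 10.26, 10.32 and 10.20 in GFP- cells at 2 weeks and 11.24, 11.22 and 11.39 at 4 weeks. The arrays at 4 weeks were above those at 2 weeks in both kinds of cell. Stap1 rose by 0.51 ± 0.13 in iCMs (adjusted p = 0.0146) and by 1.03 ± 0.13 in GFP- cells (adjusted p = 1.79e-05). The rise in iCMs was not called without replicate 1 at 2 weeks or replicate 2 at 4 weeks, nor in a fit of those groups alone.

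The platelet and leukocyte kinase substrate Plek, the adaptor Lcp2 (SLP-76) and Aif1 (IBA1, a calcium-binding actin protein) differed between the times in iCMs by -0.26 ± 0.11, -0.30 ± 0.11 and -0.22 ± 0.24. None of these 3 passed the test. In iCMs at 4 weeks they stood at 25%, 22.0% and 15.8% of the CF level.

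The 5 genes for killing, degradation and transcription had a median difference from CF of -2.12 in iCMs at 4 weeks, beside -2.64 for the 7 identity receptors and -2.90 for the 7 surface and integrin genes, as a description. Some other role groups differed by similar amounts. By list mean these 5 genes stood at 11.86 in CF and 9.86 in iCMs at 4 weeks. The 6 Fc receptors and adaptors stood at 10.76 and 8.77, the 7 signalling genes at 10.68 and 8.54, and the 3 C1q chains at 11.41 and 8.93. Lyz2 (lysozyme) read 13.15, 13.21 and 13.26 in CF, 12.09, 12.38 and 12.13 in iCMs at 2 weeks, 11.66, 11.71 and 11.82 at 4 weeks and 7.0, 6.57 and 6.70 in CM. Its iCM mean at 4 weeks was 35.9% of CF and 4.98 ± 0.10 log2 above CM, with CF close to the top of the scale. The cysteine protease Ctss stood at 31.4% of CF and the pore-forming protein Mpeg1 at 21.9%. Lyz2, Ctss and Mpeg1 fell in iCMs from 2 to 4 weeks by 0.47 ± 0.10, 0.49 ± 0.12 and 0.83 ± 0.11.

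Cybb, the catalytic subunit of the phagocyte NADPH oxidase, read 12.26, 12.30 and 12.38 in CF, 13.00, 12.89 and 12.90 in GFP- cells at 2 weeks, 12.85, 12.83 and 12.89 at 4 weeks, 10.59, 10.78 and 10.71 in iCMs at 2 weeks and 9.63, 9.97 and 9.65 at 4 weeks. It fell in iCMs by 0.94 ± 0.09 (adjusted p = 4.75e-06) and differed by -0.07 ± 0.09 in GFP- cells. Spi1, which encodes PU.1, read 9.34, 9.65 and 9.52 in CF, 10.23, 10.20 and 10.06 in GFP- cells at 2 weeks, 10.29, 10.26 and 9.95 at 4 weeks, 7.49, 7.54 and 7.76 in iCMs at 2 weeks, 7.31, 7.59 and 7.25 at 4 weeks and 6.61, 6.58 and 7.10 in CM. Its arrays fell into the same 3 tiers, at 23.0% of CF in iCMs at 4 weeks, and the difference of -0.21 ± 0.14 between the times was not called.

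PU.1 binds a purine-rich core, and RefSeq start regions of the mouse build GRCm38.p6 were searched for the core letters GAGGAA on either strand in the 250 bases before the start. Of the 36 listed genes 24 had an entry, and 13 of those held the core (C1qb, C1qc, Fcgr1, Fcgr3, Trem2, Cd68, Ptprc, Itgam, Cd53, Laptm5, Plek, Aif1 and Ctss), beside 25.9% of all 27025 gene symbols in the table. A match is a description of the letters and not a binding site. Shown are the 120 bases before the start of 6 genes that hold the core in that stretch, from 4 of the role groups, and of Lyz2, which does not hold it. Each reads 5′ to 3′ on the gene's strand, with the core or its reverse complement in capitals, for Itgam at chr7:128062520-128062639 (plus strand), Laptm5 at chr4:130913196-130913315 (plus), Cd53 at chr3:106790150-106790269 (minus), Plek at chr11:17008719-17008838 (minus), Fcgr1 at chr3:96293970-96294089 (minus), C1qb at chr4:136886201-136886320 (minus) and Lyz2 at chr10:117282273-117282392 (minus).
Itgam: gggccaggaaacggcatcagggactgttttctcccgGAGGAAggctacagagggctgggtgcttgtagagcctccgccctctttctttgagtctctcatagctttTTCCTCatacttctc
Laptm5: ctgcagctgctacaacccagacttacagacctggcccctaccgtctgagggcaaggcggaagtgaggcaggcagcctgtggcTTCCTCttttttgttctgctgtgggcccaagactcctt
Cd53: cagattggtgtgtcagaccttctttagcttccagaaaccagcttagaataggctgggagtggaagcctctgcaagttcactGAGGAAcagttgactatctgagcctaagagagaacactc
Plek: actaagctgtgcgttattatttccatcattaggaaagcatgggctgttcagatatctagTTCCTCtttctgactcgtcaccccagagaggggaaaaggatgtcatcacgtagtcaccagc
Fcgr1: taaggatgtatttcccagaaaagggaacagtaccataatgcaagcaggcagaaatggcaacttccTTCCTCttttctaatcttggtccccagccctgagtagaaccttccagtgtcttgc
C1qb: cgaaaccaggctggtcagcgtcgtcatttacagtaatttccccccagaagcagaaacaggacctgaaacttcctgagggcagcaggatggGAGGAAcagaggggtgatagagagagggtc
Lyz2: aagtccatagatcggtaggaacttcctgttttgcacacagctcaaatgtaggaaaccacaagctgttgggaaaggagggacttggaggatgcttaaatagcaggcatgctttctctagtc

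Other motifs of myeloid regulators were close to their share in the whole table or rested on few genes. The letters TTGCNNAA (a C/EBP type of site) were in 3 of 24 entries beside 10.8% of all, and TGTGGT (a RUNX type) in 5 beside 15.9%. TGANTCA (an AP-1 type) was in 4, namely Trem2, Cd68, Cd84 and Cybb, beside 7.82% of all. The longer core GAGGAAGT, which contains GAGGAA, was in 1 (C1qc) beside 2.79%, and the composite ETS and IRF element in 1 (Fcgr2b) beside 2.68%.

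In GFP- cells, in which reprogramming failed, none of these genes was called lower than in CF and 15 were called higher at each time. At 2 weeks 15 of 35 were higher than CF and none was lower, where 13.8% of all genes were higher and 8.93% lower. At 4 weeks 15 of 35 were higher and none lower, where 5.79% and 5.7% of all genes were. At an unadjusted p under 0.05, limma gave 20 higher at 2 weeks and 19 at 4 weeks, and 0 lower at either. Over all 19912 genes that threshold gave 4149 higher and 2533 lower at 2 weeks, and 2164 and 2062 at 4 weeks. The medians were 0.31 and 0.26 log2, beside 0.05 and -0.01 over all genes. The means of 6 genes at 2 weeks and 4 at 4 weeks lay below CF, among them C1qb and Aif1 at 2 weeks with all 3 arrays below all CF arrays (-0.14 ± 0.14 and -0.21 ± 0.24). Itgam at 4 weeks was called lower in 1 of 16 alternatives, that with array weights, where adjusted p ran from 0.035 to 1.

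The excess over CF was small for most genes: 2 exceeded 2-fold at 2 weeks (Il7r and Itgb2) and 3 at 4 weeks (Il7r, Fcgr2b and Stap1). Higher at both times were 10 genes, namely Fcgr3, Fcgr2b, Trem2, Cd68, Il7r, Itgb2, Laptm5, Plek, Cybb and Spi1. For this joint count too the share of all genes is not given. Without replicate 1 of CF, whose values were the lowest of that group for many of the genes, the count at 2 weeks was 9 and not 15, and 6 genes lost their call (Fcgr3, Trem2, Csf1r, Cd68, Plek and Lcp1). CF means of 9 genes lay above 12 log2, where the scale leaves less room for an excess. Both comparisons share the CF arrays.

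Markers of other cell types moved along with this excess. Of 12 fibroblast genes, 10 were lower than CF in GFP- cells at 2 weeks and 9 at 4 weeks, and the list's mean per array ran from 10.63 to 10.98 in CF, from 9.15 to 9.56 in GFP- cells at 2 weeks and from 9.33 to 9.61 at 4 weeks. Lum, of that list, was higher than CF at 4 weeks, by 1.25 ± 0.17 (SE). Of 9 endothelial genes, 8 and 7 were higher than CF, the list running from 6.79 to 6.92 in CF, from 7.84 to 7.97 at 2 weeks and from 8.29 to 8.63 at 4 weeks. Of 10 cardiomyocyte genes, 7 and 6 were higher than CF. Their part in the result was not tested.

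From 2 to 4 weeks the GFP+ cells lost part of the remaining signal. In iCMs 16 of 35 fell and 1 rose, where 7.24% of all genes fell and 4.29% rose, with a median of -0.32 beside -0.01 over all genes. The largest falls were in Sla, Cd14, Cd52, Itgam and Csf1r, the 5 that exceeded 2-fold. By role, 4 of 7 surface and integrin genes fell (Itgam, Itgb2, Cd52 and Laptm5), 4 of 5 genes for killing, degradation and transcription (Lyz2, Ctss, Mpeg1 and Cybb), 3 of 7 identity receptors (Csf1r, Cd14 and Cd68), 2 of 3 C1q chains, 2 of 7 signalling genes (Sla and Coro1a) and 1 of 6 Fc receptors and adaptors (Fcer1g). Beside it, 8 of 12 fibroblast genes fell and 1 rose, and of 10 cardiomyocyte genes 5 rose and 1 fell. The part of either list in the result was not tested.

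In GFP- cells over the same interval 3 of 35 rose (Cd200r1, Stap1 and Fcgr2b) and 5 fell (Cd14, Itgam, Itgb2, Cd52 and Csf1r), where 7.16% of all genes rose and 10.2% fell. The median was 0.07 beside -0.06 over all genes. The 5 that fell in GFP- cells also fell in iCMs, so they are 5 of 5 of the one list and 5 of 16 of the other, and Stap1 rose in both. The share of all genes called in both comparisons is not given, so this overlap is a description only. These 2 comparisons share no arrays. The count of 8 became 5 without replicate 1 or replicate 3 of GFP- cells at 2 weeks, or without replicate 2 at 4 weeks, and Fcgr2b, Csf1r and Cd52 lost their call in each case. Neither change was called for 16 genes.

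**Figure D4:**
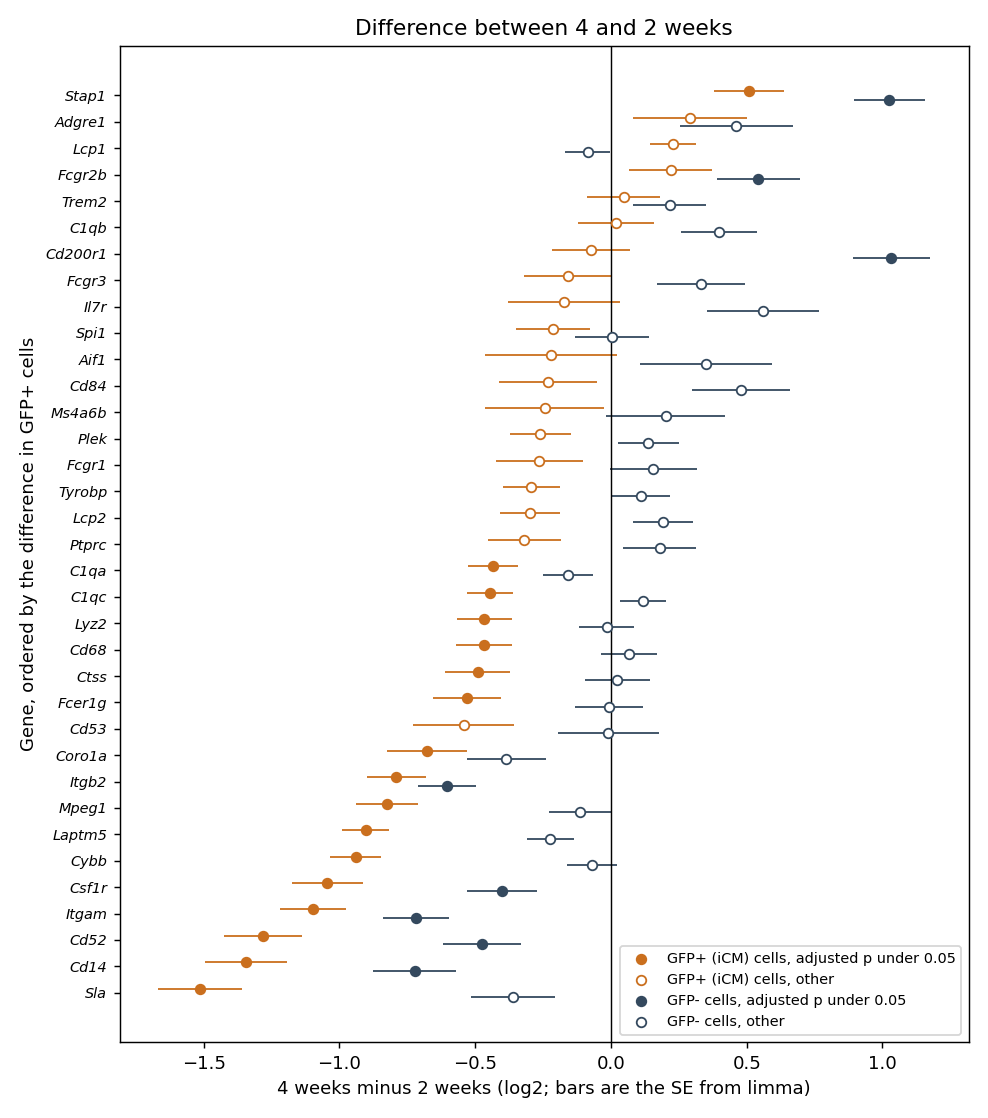
The value at 4 weeks minus that at 2 weeks (log2) is shown for each gene in GFP+ cells and in GFP- cells, with bars for the SE from limma and filled points for an adjusted p under 0.05. Most GFP+ points lie left of 0 and left of the GFP- point of the same gene, and Lcp1 is the 1 gene whose GFP+ point lies to the right.

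The difference between these 2 courses was tested directly as an interaction, the change in GFP+ cells minus the change in GFP- cells. It was negative and called for 8 of 35 genes and positive and called for none, where 2.08% of all genes were called negative and 1.86% positive. At an unadjusted p under 0.05, limma gave 23 negative and 1 positive (Lcp1). Over all 19912 genes that threshold gave 1509 negative and 1641 positive. The 8 were Sla (-1.15 ± 0.22, adjusted p = 0.00375), Cd200r1 (-1.11 ± 0.20), Cybb (-0.87 ± 0.13, adjusted p = 0.00066), Cd52 (-0.81 ± 0.20), Mpeg1 (-0.71 ± 0.16), Laptm5 (-0.68 ± 0.12), C1qc (-0.56 ± 0.12) and Cd68 (-0.54 ± 0.15, adjusted p = 0.0435). For 34 of 35 genes the estimate was below 0, with a median of -0.50 beside 0.04 over all genes.

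The 8 reached that difference by different routes. Cybb, Mpeg1, Laptm5, C1qc, Cd68 and Sla fell in GFP+ cells and were not called in GFP- cells. Cd52 fell in both, by 1.28 ± 0.14 and 0.47 ± 0.14. Cd200r1 rose in GFP- cells and was not called in GFP+ cells. Cd68 and Cd52 lost their call when single arrays were left out, among them replicate 2 or 3 of iCMs at 2 weeks, and without replicate 1 of that group 12 genes were called.

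Of 19 measured genes of signalling from Fc receptors and activation motifs, 17 were lower than CF in iCMs at 2 weeks and 18 at 4 weeks, with medians of -1.86 and -2.15. Over all genes, 15.8% and 15.2% were lower at those times. Sirpa, the inhibitory receptor for CD47, was at 12.21 ± 0.11 in CF, 10.35 ± 0.14 and 10.12 ± 0.16 in iCMs and 8.89 ± 0.29 in CM (SD, n = 3). The adaptor Fyb and the actin regulator Nckap1l differed from CF by -2.64 ± 0.17 and -3.06 ± 0.10 in iCMs at 4 weeks (SE). Not all of the list moved so far: the kinase gene Fgr differed by -0.20 ± 0.10 at 2 weeks, which was not called, and by -0.27 ± 0.10 at 4 weeks (adjusted p = 0.0449), and 1 gene of the list was not called at either time.

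All 4 measured NADPH oxidase subunits beside Cybb were lower than CF in iCMs at both times, where 15.8% and 15.2% of all genes were. At 4 weeks the differences were -0.98 ± 0.10 for Cyba, -1.89 ± 0.11 for Ncf1, -0.82 ± 0.08 for Ncf4 and -2.18 ± 0.12 for Rac2. In GFP- cells at 2 weeks all 4 were above CF, by 0.54 ± 0.12 (Rac2) to 1.04 ± 0.10 (Cyba), and at 4 weeks Cyba and Ncf4 were.

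Of 14 measured regulators of myeloid transcription, 8 were lower than CF in iCMs at each time, while Klf4 and Nr1h3 were higher at 2 weeks and Nr1h3 at 4 weeks, genes named here after their values were seen. Over all genes, 15.8% were lower at 2 weeks and 15.2% at 4 weeks. Fli1 and Runx1 were lower by 1.93 ± 0.10 and 1.72 ± 0.10 at 4 weeks, Cebpa by 0.59 ± 0.17 and Maf by 0.66 ± 0.09. None of the 14 was called between 2 and 4 weeks in iCMs, and in GFP- cells 2 rose, Cebpa among them by 0.65 ± 0.17. Of 13 measured lysosomal genes, 9 were lower than CF in iCMs at both times. Ctsb and Ctsd were lower by 1.18 ± 0.10 and 0.54 ± 0.07 at 4 weeks, Lamp2, a lysosomal membrane protein, by 0.29 ± 0.10, and Ctsl differed by 0.09 ± 0.08. Lamp2 rose in iCMs between the times by 0.40 ± 0.10 (adjusted p = 0.0111).

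Of 8 measured genes of CSF1 receptor ligands and survival, 6 were lower than CF in iCMs at 2 weeks and 5 at 4 weeks. Over all genes, 15.8% and 15.2% were lower at those times. Csf1 encodes a ligand of the CSF1 receptor. Its arrays read 11.41, 11.23 and 10.83 in CF, 10.15, 10.31 and 9.92 in GFP- cells at 2 weeks, 10.01, 9.78 and 9.60 at 4 weeks, 10.73, 10.44 and 10.76 in iCMs at 2 weeks, 9.54, 9.66 and 9.59 at 4 weeks and 7.69, 7.53 and 7.68 in CM. At 2 weeks Csf1 was thus 0.51 ± 0.14 higher in iCMs than in GFP- cells (adjusted p = 0.00558), where Csf1r was 2.51 ± 0.13 lower. From 2 to 4 weeks Csf1 fell in iCMs by 1.05 ± 0.14 (adjusted p = 8.38e-05). Cx3cr1, the fractalkine receptor, fell in iCMs by 0.72 ± 0.13 and in GFP- cells by 0.66 ± 0.13. Csf2ra, a GM-CSF receptor chain, was 0.57 ± 0.12 below CF in iCMs at 2 weeks and 0.66 ± 0.12 at 4 weeks. Tgfbr1, a TGF-beta receptor, was 0.43 ± 0.16 below CF at 2 weeks and differed by -0.39 ± 0.16 at 4 weeks, which was not called.

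Of the 7 other integrin genes listed, 1 was lower than CF in iCMs at 2 weeks (Itga4) and 2 at 4 weeks (Itga4 and Itgax). Over all genes, 15.8% and 15.2% were lower at those times. Itgax (CD11c) was singled out after its values were seen. It read 7.41, 7.45 and 7.38 in CF, 8.16, 8.73 and 7.89 in GFP- cells at 2 weeks and 9.77, 9.53 and 9.13 at 4 weeks, with no overlap between these groups. The excess over CF was 0.85 ± 0.17 at 2 weeks (adjusted p = 0.00109) and 2.06 ± 0.17 at 4 weeks (adjusted p = 4.88e-08). Itga4 was 1.95 ± 0.12 below CF in iCMs at 4 weeks, while the widely used chain Itgb1 was at 12.44 ± 0.05 in CF and 12.39 ± 0.05 there. Itgav, a chain of vitronectin receptors, differed from CF in iCMs by -0.01 ± 0.13 and 0.18 ± 0.13, and Itga5, of the fibronectin receptor, by 0.17 ± 0.09 and -0.15 ± 0.09, none of them called.

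Marker lists of T, B, NK, dendritic and erythroid cells and neutrophils had group means within a narrow range, while those of platelets, osteoclasts and mast cells did not. The mean over 10 T cell genes lay between 6.35 ± 0.08 and 6.68 ± 0.01 in all 6 groups, that over 7 B cell genes between 6.39 ± 0.05 and 6.64 ± 0.06, and that over 8 NK cell genes between 5.67 ± 0.03 and 5.79 ± 0.08. The 10 neutrophil genes lay between 5.96 ± 0.08 and 6.21 ± 0.04 and the 7 dendritic cell genes between 6.49 ± 0.07 and 6.63 ± 0.07 (SD, n = 3). Of the 8 NK cell genes, 6 or 7 were near background in every group. The 4 erythroid genes lay between 6.35 ± 0.02 and 6.56 ± 0.07, and 9 genes that most cells use between 11.70 ± 0.09 and 12.04 ± 0.02.

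The mean over 5 megakaryocyte and platelet genes was 7.42 ± 0.06 in CF, 7.29 ± 0.04 and 7.56 ± 0.09 in GFP- cells, 6.87 ± 0.09 and 7.01 ± 0.08 in iCMs and 6.77 ± 0.15 in CM, in the same order of tiers as the macrophage genes. That over 8 osteoclast genes was 7.54 ± 0.05, 7.89 ± 0.06 and 8.08 ± 0.11, 7.33 ± 0.07 and 7.42 ± 0.08, and 6.86 ± 0.06 in the same groups, also in those tiers. That over 8 mast cell genes was highest in iCMs, at 6.33 ± 0.11 and 6.44 ± 0.02, beside 5.82 ± 0.02 to 5.98 ± 0.15 in the other 4 groups. The tiers of the platelet and osteoclast lists rested largely on single genes. Pf4 differed from CF by -3.23 in CM and -2.55 in iCMs at 2 weeks, while Itga2b, Gp9 and Gp5 were called in neither comparison. Atp6v0d2 differed by -4.22 and -1.77, while Ocstamp, Dcstamp, Calcr and Oscar were called in neither. In iCMs at 2 weeks Ctsk was 0.48 higher than CF and Mmp9 differed by -0.68. The part of these lists in the result was not tested.

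Single genes of the lists for other cell types stood apart and were named after their values were seen. Cd28, listed for T cells, read 8.70, 9.15 and 9.33 in CF and 6.43, 6.54 and 6.61 in iCMs at 2 weeks, 2.54 ± 0.18 lower. Pf4, listed for platelets, read 9.64, 9.77 and 9.61 in GFP- cells at 2 weeks and 11.13, 11.28 and 11.71 at 4 weeks, and 7.42, 7.56 and 7.51 in iCMs at 2 weeks. Both were thus in the same high groups as the macrophage genes. The mast cell protease gene Mcpt4 went the other way, at 6.12 ± 0.24 in CF, 9.84 ± 0.79 and 10.30 ± 0.21 in iCMs and 6.08 ± 0.29 in CM, with the other 7 mast cell genes at or under 7.25 on all arrays.

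Of the osteoclast list, Atp6v0d2 was also named after its values were seen. It encodes a subunit of the vacuolar proton pump that fused macrophages express. Atp6v0d2 read 9.21, 9.42 and 9.64 in CF, 10.80, 10.81 and 10.67 in GFP- cells at 2 weeks, 12.60, 12.54 and 12.19 at 4 weeks, 7.66, 7.86 and 7.46 in iCMs at 2 weeks, 9.24, 9.33 and 8.64 at 4 weeks and 5.48, 4.77 and 5.36 in CM. Atp6v0d2 rose in both kinds of cell between the times, by 1.69 ± 0.19 in GFP- cells (adjusted p = 4e-06) and 1.41 ± 0.19 in iCMs (adjusted p = 8.2e-05). Of the 35 genes, 3 were called higher at 4 weeks in GFP- cells and 1 in iCMs. The mean was higher at 4 weeks for 20 of the 35 in GFP- cells and for 6 in iCMs. Of the 8 osteoclast genes, Atp6v0d2 was the 1 called between the times in either kind of cell.

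**Figure D5:**
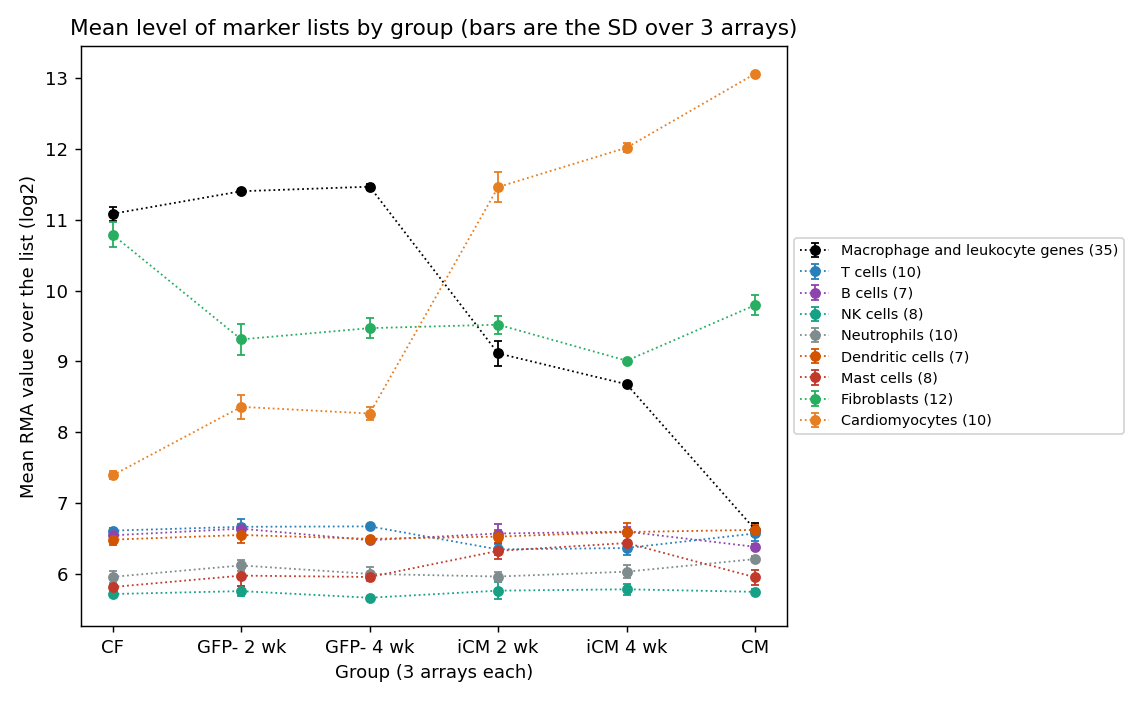
The mean RMA value (log2) over each marker list is shown by group, with bars for the SD over 3 arrays and the number of genes in the legend. The macrophage and leukocyte genes drop from 11.46 in GFP- cells at 4 weeks to 8.68 in iCMs at 4 weeks and 6.63 in CM, the cardiomyocyte list runs the other way, and the T, B, NK, neutrophil, dendritic and mast cell lists stay between 5.67 and 6.68; the platelet and osteoclast lists are not drawn.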

How the data were processed

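The deposited table holds 1 value per probe set and array for 28682 probe sets on 18 arrays. Per the submitters' processing notes the authors summarised them by RMA, and the values have the range of log2 intensities; the version and settings are not given in the sources used here. Per the labels' protocols, RNA came from small cell numbers and was amplified before labelling, which can compress or add differences. Of the probe sets, 21755 named 1 gene in the platform annotation, 1592 several and 5335 none; for each of 19912 genes the probe set of highest mean was kept. The replicates are biological per the series' design text.

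A model with 1 mean per group was fitted to all 18 arrays in limma 3.58.1 (R 4.3.3), with eBayes and two-sided tests adjusted by Benjamini-Hochberg. On simulated data for iCMs at 2 weeks against CF over 19912 genes, 66% of genes changed by 0.5 log2 were recovered and 100% of those changed by 1, 2 or 3. Depth has no counterpart on arrays, where the number of arrays limits the precision. Within groups, arrays correlated at 0.9897 to 0.9959 over genes. The near-background limit was set after the data were seen. Promoters were searched and figures drawn in Python 3.11.15 and matplotlib 3.10.9.

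The genes described and all lists were chosen with earlier results of these data known. Beyond them, the rule named up to 4 genes of highest mean in each list, or those behind a count of 5 or fewer; 1 such gene of the activation motif list is not reported here, and others are said to be chosen after their values were seen. Alternatives were other normalizations, array weights, an intensity trend, fits of only the groups compared, a 2-fold minimum, other probe set rules, a low-value filter, a replicate block and leaving out each array.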

Additional observations from a re-analysis of the deposited data

Results flagged for a closer look

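For 8 of the genes the change from 2 to 4 weeks differed between GFP+ and GFP- cells, by the limma interaction term adjusted over all genes. The change in GFP+ cells minus that in GFP- cells was -1.15 for Sla, -1.11 for Cd200r1, -0.87 for Cybb, -0.81 for Cd52, -0.71 for Mpeg1, -0.68 for Laptm5, -0.56 for C1qc and -0.54 for Cd68 (log2). Groups of 3 arrays are too small for a test of single outlying arrays.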

How the results depend on the processing

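No called difference changed sign under any alternative run. The 35 calls of CM against CF and of iCMs against GFP- cells at 2 weeks held in all of them, and in iCMs against CF at both times and against GFP- cells at 4 weeks 34 of 35 did, Lcp1 losing its call with a 2-fold minimum. That minimum left 2 genes for GFP- cells against CF at 2 weeks, 3 at 4 weeks, 5 for the time change in iCMs, 2 for that in GFP- cells and 2 for the interaction. Array weights gave 26 genes for the time change in iCMs, 15 for that in GFP- cells and 23 for the interaction, where the cause was not tested. Fitting only the groups compared, the time change in GFP- cells gave 12 genes in place of 8. Leaving out single arrays gave 9 to 16 genes for GFP- cells against CF at 2 weeks, 11 to 14 at 4 weeks, 15 to 19 for the time change in iCMs, 5 to 9 for that in GFP- cells and 6 to 12 for the interaction.

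Replicate numbers were not treated as pairs, since in no comparison did all 3 same-number correlations exceed 0.1. Single ones were larger. Between iCMs at 2 and 4 weeks they were 0.4538, 0.3447 and 0.0836 for replicates 1, 2 and 3. Between iCMs and GFP- cells at 2 weeks they were 0.2703, 0.378 and -0.3013. In both, replicates 1 and 2 correlated best with their own number. Whether the numbers pair the arrays cannot be settled from these values. With the replicate number as a block, GFP- cells against CF at 2 weeks gave 17 genes, the time change in iCMs 18 and the interaction 10, and the other counts did not move. In GFP- cells against CF at 4 weeks each of the 3 arrays correlated best with its own number (0.0641 to 0.2062), a hint from the data and not the design. Signal over background limits the differences from CM of the 9 genes near background there.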
